A study of Mus musculus with 103 samples.

Results

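The enzymes described here attach a sugar acid, a sulfate or glutathione to foreign and endogenous compounds, or oxidise alcohols and aldehydes. They were taken by gene symbol: every probe set annotated with 1 symbol that begins with Gst, Ugt, Sult, Aldh or Adh followed by the family's number (for Gst, a class letter and a number). The rule found 84 probe sets of 59 genes among the 22690 probe sets of a mouse Affymetrix array. They comprised 25 probe sets of 18 Gst genes, 12 of 9 Ugt genes, 12 of 11 Sult genes, 30 of 17 Aldh genes and 5 of 4 Adh genes.

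The series tested a method for labelling very small amounts of RNA, and 45 of its 103 arrays are used here. Total RNA of 8 tissues (brain, embryo, heart, kidney, liver, lung, ovary and spleen) came from a commercial mouse panel made by Ambion. Each was hybridised once from 500 pg as cDNA labelled by the BIIB protocol of Biogen Idec, and once from 1 ug as cRNA made with the standard one-cycle kit of Affymetrix. The other 29 arrays were all BIIB arrays: 11 of flow-sorted RAW267 cells, a cultured line, at 50 to 10000 cells per array, and 18 of B and T lymphocytes. The lymphocytes were sorted from the spleen cells of a single normal mouse and mixed in 6 proportions, at 100 or 500 cells per array. Strain, sex and age are not given in the labels.

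The families divide the work of clearing a compound. UDP-glucuronosyltransferases (Ugt) add glucuronic acid, cytosolic sulfotransferases (Sult) add sulfate and glutathione S-transferases (Gst) add glutathione, which makes their substrates easier to excrete. Alcohol dehydrogenases (Adh) turn alcohols and retinol into aldehydes, and aldehyde dehydrogenases (Aldh) turn aldehydes, including retinal and the acetaldehyde made from ethanol, into acids. Liver is the organ best known for all of them, with kidney and gut as further sites.

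The Ugt2 genes included the largest change between tissues, so their promoters are shown first. The 6 genes all lie on the minus strand of mouse chromosome 5. The last 150 bases before each start site are given below, 5′ to 3′, from RefSeq on build GRCm38.p6, as a description of genes that differ in tissue. Capitals mark GTTAA or its complement TTAAC, the core of the half-site bound by HNF1 factors, which are transcription factors of liver and kidney.
Ugt2b1: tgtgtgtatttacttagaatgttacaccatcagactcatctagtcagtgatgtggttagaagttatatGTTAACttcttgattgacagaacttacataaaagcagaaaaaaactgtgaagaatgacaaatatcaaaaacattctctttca
Ugt2b5: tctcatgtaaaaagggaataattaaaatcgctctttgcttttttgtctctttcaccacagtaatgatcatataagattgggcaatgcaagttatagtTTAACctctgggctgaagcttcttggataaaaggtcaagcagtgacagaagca
Ugt2b34: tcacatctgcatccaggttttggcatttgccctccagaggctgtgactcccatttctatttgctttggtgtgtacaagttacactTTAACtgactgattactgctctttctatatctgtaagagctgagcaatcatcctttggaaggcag
Ugt2a3: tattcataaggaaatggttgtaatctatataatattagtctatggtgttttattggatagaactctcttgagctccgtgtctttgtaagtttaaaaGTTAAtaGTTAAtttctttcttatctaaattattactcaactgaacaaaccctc
Ugt2b37: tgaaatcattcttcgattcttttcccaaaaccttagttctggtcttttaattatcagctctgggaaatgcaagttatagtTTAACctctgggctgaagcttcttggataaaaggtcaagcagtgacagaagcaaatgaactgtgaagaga
Ugt2b38: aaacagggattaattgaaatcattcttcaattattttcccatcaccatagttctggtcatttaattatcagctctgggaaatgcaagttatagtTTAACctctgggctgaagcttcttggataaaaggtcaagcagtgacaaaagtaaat

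The windows are chr5:86926504-86926653 for Ugt2b1, chr5:87140341-87140490 for Ugt2b5, chr5:86906938-86907087 for Ugt2b34, chr5:87337196-87337345 for Ugt2a3, chr5:87254789-87254938 for Ugt2b37 and chr5:87424204-87424353 for Ugt2b38. All 6 held the 5-letter core at least once. The promoters of Ugt2b37 and Ugt2b38, brightest in kidney, were 85.6% identical over the 250 bases upstream of the start, with a shared run of 82 bases. The promoter of Ugt2b5, brightest on the arrays labelled brain, was 82.3% identical to that of Ugt2b38 and 73% identical to that of Ugt2b37. Identity in the other pairs lay between 48.5% and 53.2%, so the promoter of Ugt2b5 was closer in sequence to the pair bright in kidney than to the genes bright with it. Searched on both strands over those 250 bases, the core GTTAA was found in 21.7% of the promoters of 27025 genes and in 17 of the 50 member genes that had a promoter entry (34%). It was found in 15 of the 37 member genes higher on the arrays labelled brain (40.5%) and in 5 of the 20 higher in kidney (25%). The core of the antioxidant response element, TGACNNNGC, read by the NRF2 pathway, was found in 10.1% of all promoters, in 4 of the 50 member genes (8%), in 2 of those 37 (5.41%) and in 2 of those 20 (10%). In Ugt2b1 the letters GTTAAC hold the core on both strands, so its 2 matches overlap. A match is a description and not a binding site.

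The labels of a pair of tissues went against their markers. All 13 liver markers on the array (Alb, Apoa1, Cyp7a1 and others) were highest on the arrays labelled brain, and all 11 brain markers (Mbp, Snap25, Gfap and others) on the arrays labelled liver, by the mean of both protocols. The summed signal of the liver markers was 5800909 and 3273309 on the BIIB and one-cycle arrays labelled brain, against 194009 and 147391 on those labelled liver. For the brain markers the sums were 723 and 2216 on the arrays labelled brain, against 682513 and 362045 on those labelled liver. The other 6 tissues had all of their own markers highest: 9 of 9 for heart, kidney and ovary, and 7 of 7 for lung, spleen and embryo. Each of those 6 is therefore also given without the arrays labelled brain and liver where that changes a count by more than 1.5 times.

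Values are MAS5 signals scaled to 1 level per array, with a median signal of 368 to 1170 across these 45 arrays. They compare 1 probe set between arrays, not 1 gene with another. Each tissue had 1 array per protocol, so the 2 protocols serve as its replicates. Both arrays of a tissue carry RNA of the same panel. The mean difference between protocols was fitted, so the p-values of the tissue tests measure how far that difference varied between tissues. They do not measure the spread between animals or RNA samples. Limma set each tissue against the other 7 on the log2 scale after a pseudocount of 5% of that level was added, a scale that understates the change of dim probe sets, over the 15180 probe sets with a mean signal of at least 500. A probe set was called with an adjusted p under 0.05 and at least a 2-fold change. Of the 84 members 66, from 53 genes, passed that filter, which a member bright in a single tissue can pass through that tissue alone. Such a member is placed to come out higher in its bright tissue, as Ugt2a3 on the arrays labelled brain or Ugt2b38 in kidney. Counts of higher members and medians carry this limit. The same member lies below the mean of the other 7 in every dim tissue, and can be called lower there without a loss. In whole tissue RNA, fewer cells of a type and less RNA per cell cannot be told apart. Of the 84 probe sets 11 are of the x or s type, which can read near-identical genes: 4 of Aldh18a1, 2 of Gstm1 and 1 each of Aldh2, Gstm3, Gsto1, Ugt2b34 and Ugt3a1. Which gene they read is uncertain.

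The enzymes were most widely detected on the arrays labelled brain, where 59 of 84 probe sets reached a signal of 500 by both protocols. Kidney followed with 48, then ovary with 36, embryo with 35, lung with 31, heart with 27, the arrays labelled liver with 25 and spleen with 22. Judged by the mean of both protocols, 44 members had their highest signal on the arrays labelled brain, 20 in kidney, 12 in ovary, 4 in embryo, 2 each in lung and on the arrays labelled liver, and 0 in heart and spleen. Both protocols named the same top tissue for 69 of the 84. Use differed widely between members: 16 reached 500 on both arrays of all 8 tissues, 18 did so in exactly 1 tissue and 12 in none. The same counts over all probe sets are not given. These counts alone therefore cannot tell an order of these enzymes from an order of the arrays.

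**Figure D1:**
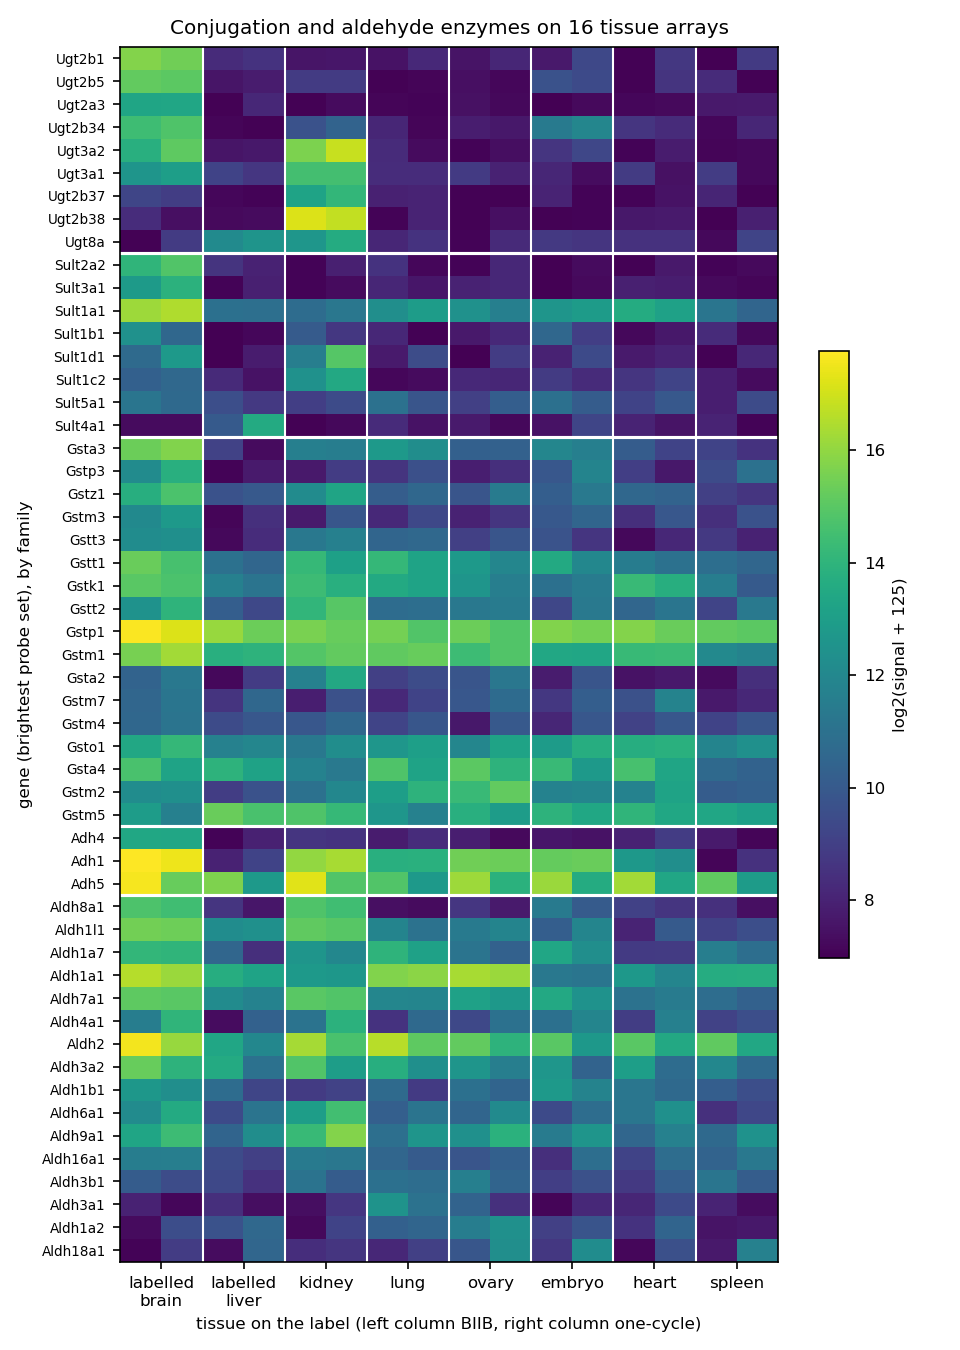
Log2 signals, after the pseudocount was added, of the brightest probe set of each of the 53 genes tested, on the 16 tissue arrays, with genes in rows by family and arrays in columns by tissue, BIIB left of one-cycle. The pair labelled brain is the brightest in most rows, Ugt2b38 is bright in kidney alone, and no row peaks in spleen.

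On the arrays labelled brain, 52 members of the 66 tested were higher than in the other 7 tissues and 4 were lower. Across all probe sets tested 10.7% were called higher and 24% lower there. The median change of the members was 2.22 on the log2 scale, against -0.42 for all probe sets tested. By family, 8 of 11 Ugt, 8 of 9 Sult, 17 of 21 Gst, 3 of 3 Adh and 16 of 22 Aldh probe sets were higher, with medians of 5.51, 2.99, 1.87, 4.84 and 1.76. Members that passed the filter through these arrays alone, such as Ugt2a3 and Sult3a1, were placed to come out higher, which limits these counts and medians. On 27 of the 84 members both arrays labelled brain lay above the other 14 tissue arrays (32.1%), as they did on 3.2% of all 22626 non-control probe sets. The counts were 50 higher and 5 lower without the arrays labelled liver. Markers of intestinal epithelium, with 1 of 3 tested called higher, summed to 72262 and 17030 on these arrays, against 92194 and 45917 in embryo and 174 to 7797 in the rest. Of 7 macrophage markers tested 6 were higher and 0 lower on the arrays labelled brain, with a median of 1.33. Their summed signal there was 72425 and 89598, against 12756 to 265953 on the other tissue arrays, with lung by BIIB the highest. The part of either cell type in these changes was not tested.

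Among the glucuronosyltransferases, Ugt2b1 had signals of 54782 and 43504 on the BIIB and one-cycle arrays labelled brain, against 3.4 to 510 (median 122) on the other 14. Ugt2b5 read 36642 and 33872 there, against 5.2 to 696 (median 82.7). For Ugt2a3 the signals were 10231 and 10454, against 0.9 to 167 (median 24.8). In each of the 3 genes both arrays labelled brain stood far above every other tissue array, with no overlap. Their log2 changes were 7.57 ± 0.39 (SE; adjusted p = 4e-08, limma), 7.12 ± 0.38 (5.2e-08) and 6.03 ± 0.26 (1.5e-08), in that order. Ugt2b34, read by 2 probe sets, had signals of 21865 and 28561 on its brighter one, against 4.9 to 3784 (median 155). The embryo arrays came next in it, at 2506 and 3784, and its change was 6.01 ± 0.33 (adjusted p = 8.1e-08, limma). Enzymes of the Ugt2 group glucuronidate steroids, bile acids and many drugs. The single Ugt probe set called lower was Ugt8a, which makes the galactosylceramide of myelin, at -1.61 ± 0.38 (adjusted p = 0.0051, limma).

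Sulfotransferases of hydroxysteroids and phenols peaked on the same arrays. Sult2a2, a member of the hydroxysteroid group, read 16865 and 29183 on the arrays labelled brain, against 2.7 to 260 (median 29.1) on the others. Sult3a1, from a family that sulfates amines, read 7267 and 15283, against 3.6 to 165 (median 52.9). Neither gene reached 300 on any other tissue array. Sult1a1, the main phenol sulfotransferase, was measurable everywhere: it read 73339 and 91231, against 1314 to 12557 (median 4010), with heart by BIIB the highest of the rest. Sult1b1, which acts on thyroid hormones and phenols, had 5340 and 1404, against 4.3 to 1425 elsewhere, and overlapped with embryo by BIIB. The log2 changes were 6.88 ± 0.4 for Sult2a2 (SE; adjusted p = 1.2e-07, limma), 5.83 ± 0.29 for Sult3a1 (3.1e-08), 4.38 ± 0.3 for Sult1a1 (4.4e-07) and 3.35 ± 0.45 for Sult1b1 (0.00011).

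The largest changes among glutathione S-transferases came from the alpha, pi, zeta and mu classes. Gsta3, an alpha-class enzyme that in mice detoxifies aflatoxin epoxide, read 41122 and 53201 on the arrays labelled brain, against 30.4 to 7014 (median 1141) elsewhere. Gstp3, of the pi class, read 4473 and 13954, against 12.4 to 3544 (median 307). Gstz1, which isomerises maleylacetoacetate in tyrosine breakdown, read 13436 and 26457, against 275 to 9798 (median 1147). Kidney by one-cycle was the highest of the other arrays for Gstz1 and embryo by one-cycle for Gstp3, and neither overlapped with the arrays labelled brain. Gstm3, of the mu class, read 4193 and 6816, against 13.3 to 1300 (median 247), from a probe set that may read other Gstm genes. Their log2 changes were 5.11 ± 0.34 (SE; adjusted p = 3.7e-07, limma), 4.06 ± 0.46 (3.1e-05), 3.69 ± 0.35 (6.5e-06) and 3.55 ± 0.3 (2.5e-06). Another mu gene, Gstm5, went the other way at -1.35 ± 0.23 (adjusted p = 0.00066, limma), and within each protocol its highest signal was on the array labelled liver, at 40275 by BIIB and 26162 by one-cycle.

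All 3 alcohol dehydrogenase probe sets that were tested were higher. Adh4, a class II enzyme, read 10605 and 10458 on the arrays labelled brain, against 11.8 to 354 (median 105), and no other tissue array came near. Adh1, the class I ethanol and retinol dehydrogenase, read 222528 and 184983, against 16.1 to 83953 (median 14048), with kidney next. Adh5, the class III enzyme that oxidises glutathione-bound formaldehyde in most cells, read 200757 and 38467, against 7039 to 159481 (median 28971), and so overlapped across protocols. Within each protocol the array labelled brain was its brightest. The changes were 5.49 ± 0.32 for Adh4 (SE; adjusted p = 1.3e-07, limma), 4.84 ± 0.34 for Adh1 (4.8e-07) and 1.74 ± 0.24 for Adh5 (0.00013).

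The aldehyde dehydrogenases with the largest changes were also bright in other tissues. Aldh8a1, which acts in tryptophan breakdown, read 27507 and 22627 on the arrays labelled brain, against 31.6 to 28036 (median 275) elsewhere, and kidney matched it. Aldh1l1, which oxidises formyl-tetrahydrofolate, read 45614 and 42985, against 139 to 35446 (median 3081), again with kidney next. Aldh1a7 read 17601 and 16422, against 221 to 16051 (median 2506), with lung by BIIB just below. Aldh1a1, a retinal dehydrogenase and close relative of Aldh1a7, read 96037 and 71914, against 2172 to 84781 (median 11174), and overlapped with ovary. The log2 changes were 5.2 ± 0.27 (SE; adjusted p = 4.8e-08, limma), 4.04 ± 0.44 (2e-05), 2.79 ± 0.34 (5.2e-05) and 2.7 ± 0.24 (3.6e-06). Aldh2, the mitochondrial enzyme that removes acetaldehyde, was called higher on all 3 of its probe sets, by 2.42, 1.62 and 1.41. The brightest, at 2.42, peaked on the arrays labelled brain by both protocols, at 195418 and 70318. On the probe sets at 1.62 and 1.41, one-cycle signals over all 8 tissues were only 126 to 729 and 134 to 584. By one-cycle the probe set at 1.62 was highest in heart. Those 2 calls therefore do not show a clear rise by both protocols. Aldh1a2, the embryonic retinal dehydrogenase, was lower at -1.21 ± 0.39 (adjusted p = 0.026, limma). Aldh18a1, which makes proline precursors, was called lower on 1 of its probe sets at -1.18 ± 0.43 (adjusted p = 0.046, limma), and not on its brightest.

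In kidney 28 members were higher and 10 lower than in the other 7 tissues, against 10.6% and 12.4% of all probe sets tested. The median of the members was 0.78 on the log2 scale, against -0.13 for all. By family, 7 of 11 Ugt, 3 of 9 Sult, 7 of 21 Gst, 2 of 3 Adh and 9 of 22 Aldh probe sets were higher, and 2, 2, 2, 0 and 4 were lower. On 11 of the 84 members (13.1%) both kidney arrays lay above every other tissue array, as they did on 2.8% of all 22626 non-control probe sets. Without the arrays labelled brain and liver the counts were 31 and 9. The count of lower members fell to 3 without the BIIB kidney array and to 6 without the one-cycle kidney array.

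Ugt2b38 had the largest change of any member in any tissue comparison made here. It read 151307 and 111763 on the BIIB and one-cycle kidney arrays, against 2.4 to 204 (median 38.1) on the other 14. Its log2 change was 9.54 ± 0.33 (SE; adjusted p = 1e-08, limma). Ugt2b37, of the same gene cluster, read 9447 and 17761 in kidney, against 5.5 to 471 (median 38.5), and changed by 6.01 ± 0.34 (adjusted p = 1.7e-07, limma). The Ugt3 enzymes, which in humans transfer sugars other than glucuronic acid, were also bright: Ugt3a2 read 51307 and 118026 in kidney, against 8.7 to 34841 (median 73.6), where the highest of the rest was the one-cycle array labelled brain. Its change was 7.59 ± 0.36 (adjusted p = 5.3e-08, limma), and both Ugt3a1 probe sets rose by 5.6 and 5.82.

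**Figure D2:**
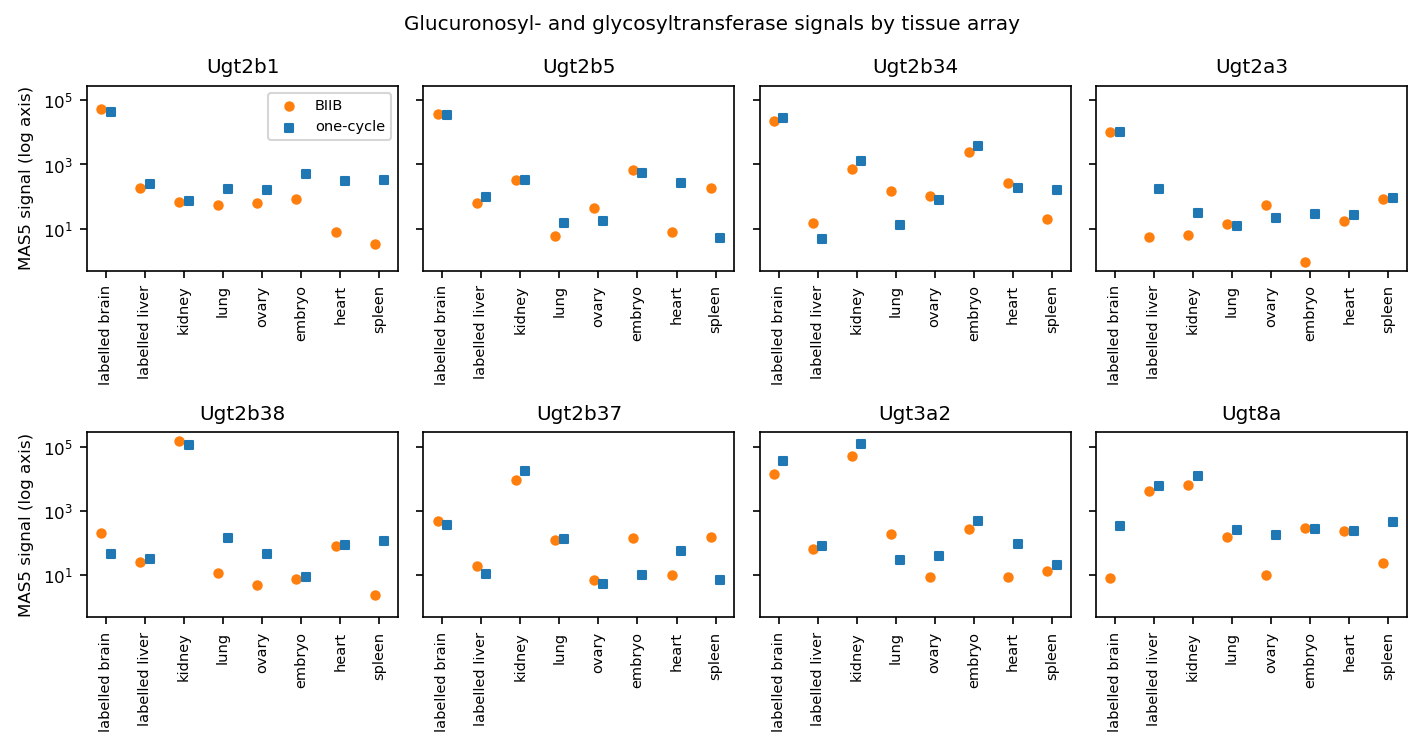
Signals (log axis) of 8 Ugt genes on the tissue arrays, with circles for BIIB and squares for one-cycle. Ugt2b1, Ugt2b5, Ugt2b34 and Ugt2a3 peak on the arrays labelled brain, Ugt2b38 and Ugt2b37 peak in kidney at 151307 and 17761, Ugt3a2 is bright in both, and Ugt8a is bright in kidney and on the arrays labelled liver.

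Among the other families in kidney, Sult1d1, which in mice sulfates catecholamines, read 2966 and 31006, against 2.5 to 7109 (median 133). The BIIB kidney array lay below the one-cycle array labelled brain in it. Sult1c2 read 5369 and 11296, against 19.2 to 1465 (median 173), with no overlap. Gsta2, an alpha-class enzyme, read 3227 and 11310, against 22 to 2390 (median 373), and Gstt2, of the theta class, read 17106 and 31629, against 453 to 16241 (median 1967). Both kidney arrays were the brightest for both genes. The changes were 4.7 ± 0.43 for Sult1d1 (SE; adjusted p = 1e-05, limma), 4.55 ± 0.33 for Sult1c2 (1.3e-06), 3.6 ± 0.34 for Gsta2 (1.2e-05) and 3.57 ± 0.48 for Gstt2 (0.00018). Adh1 read 65929 and 83953 in kidney, second to the arrays labelled brain, and changed by 3.19 ± 0.34 (2.9e-05). Adh5 read 159481 and 29221 and changed by 1.32 ± 0.24 (0.0014). Aldh8a1 read 28036 and 22570 in kidney and Aldh1l1 35446 and 32030. They rose by 5.22 ± 0.27 (1e-07) and 3.59 ± 0.44 (9e-05).

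Set directly against kidney, the arrays labelled brain had 26 members higher and 11 lower, against 7.71% and 12.7% of all probe sets tested. The count of lower members was 6 without the one-cycle kidney array. The Ugt family split: 5 of its 11 probe sets were higher on the arrays labelled brain and 6 in kidney, which leaves none of the tested Ugt probe sets without a call. Ugt2b38, with 204 and 44.6 on the arrays labelled brain, against 151307 and 111763 in kidney, differed by -9.11 ± 0.44 (SE; adjusted p = 8.8e-08, limma). Ugt2b1 differed by 7.97 ± 0.51 (4.7e-07), Sult2a2 by 6.93 ± 0.53 (1.7e-06), Ugt2b5 by 6.25 ± 0.5 (2.4e-06) and Ugt2a3 by 6.19 ± 0.35 (1.7e-07). Ugt2b37 was lower at -4.59 ± 0.45 (1.3e-05) and Ugt8a at -5.19 ± 0.5 (1.2e-05). In the other families 11 of 21 Gst, 4 of 9 Sult, 2 of 3 Adh and 4 of 22 Aldh probe sets were higher on the arrays labelled brain, and 2, 2, 0 and 1 were lower. Of the 22 Aldh probe sets 17 were called in neither direction.

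The genes that supply these enzymes were counted by lists of the pathway. Beside these counts, 10.7% of all probe sets tested were higher and 24% lower on the arrays labelled brain, with a median of -0.42, and 10.6% and 12.4% in kidney, with a median of -0.13. Of the cosubstrate genes, which make activated glucuronic acid and sulfate and carry them into the secretory compartments, 5 of 8 tested were higher and 1 lower on the arrays labelled brain, and 5 were higher and 0 lower in kidney, with list medians of 1.31 and 1.43. Papss1 and Papss2, which both make activated sulfate, differed on the arrays labelled brain, at -1.89 ± 0.27 (SE; adjusted p = 0.00017, limma) and 2.36 ± 0.33 (0.00017), while both rose in kidney, by 1.27 and 2.73. Of the glutathione genes 5 of 11 were higher and 2 lower on the arrays labelled brain, with Gclc and Gclm, the subunits of the rate-limiting ligase of glutathione synthesis, at 1.98 and 2.01. In kidney 6 were higher and 2 lower, with Gss, the second enzyme of that synthesis, at 3.1. The medians of this list were 0.42 on the arrays labelled brain and 1.33 in kidney. Gpx3, the secreted glutathione peroxidase, was lower on the arrays labelled brain at -4.82 ± 0.37 (adjusted p = 1.1e-06, limma), and higher in kidney at 4.64 ± 0.37 (3.4e-06). Other conjugating enzymes had 10 of 12 higher and 0 lower on the arrays labelled brain, with a median of 4.18, and 4 higher and 1 lower in kidney, with a median of 0.75. Glyat, which conjugates glycine, was higher in both, by 6.12 and 7.37. Other aldehyde and alcohol enzymes had 16 of 21 higher and 2 lower on the arrays labelled brain, and 8 higher and 4 lower in kidney, with medians of 1.93 and 0.23.

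The arrays labelled liver, which carry brain markers, had few of these enzymes. There 3 members were higher and 38 lower, against 15.3% and 19.4% of all probe sets tested, and 24 were lower without the BIIB array. The median of the members was -1.27, against -0.11 for all. Adh1 read 132 and 445 on the BIIB and one-cycle arrays labelled liver, against 16.1 to 222528 (median 38834) on the other 14, and of those only the spleen arrays overlapped. Its log2 change was -5.51 ± 0.34 (SE; adjusted p = 3.4e-07, limma). Sult4a1, a sulfotransferase known from neurons, read 910 and 12054, against 7.1 to 477 (median 57), and changed by 4.14 ± 0.67 (0.00046). The BIIB array was far below the one-cycle array in it, yet both lay above every other. Ugt8a read 4333 and 5999, against 8.1 to 12326 (median 244), with kidney above, and changed by 3.42 ± 0.38 (2.5e-05).

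Lung had 9 members higher and 15 lower, against 12.4% and 9% of all probe sets tested, and ovary 9 and 16, against 8.83% and 6.59%. The medians of the members were -0.53 in lung and -0.37 in ovary, against 0.05 and 0.17 for all. Of the 11 Ugt probe sets 9 were lower in lung and 10 in ovary, and 0 were higher in either. These counts cannot tell a loss in lung or ovary from brightness in another tissue. Ugt2b38, which reached 500 on both arrays in kidney alone, was called lower in lung at -1.21 and in ovary at -1.63. Leaving out the BIIB lung array gave 4 higher and 9 lower. Leaving out the BIIB ovary array gave 4 and 5, leaving out the one-cycle ovary array 4 and 6, and leaving out the arrays labelled brain 11 and 6. Aldh3a1, known as a major protein of the cornea, read 5764 and 1984 in lung, against 16.1 to 1255 (median 147), and changed by 3.62 ± 0.58 (SE; adjusted p = 0.00083, limma). Aldh1a7 read 16051 and 8924 in lung, against 221 to 17601 (median 2506), and changed by 2.22 ± 0.34 (0.00061). Aldh8a1 was at 45.5 and 31.6 in lung, against 44.2 to 28036 (median 346), a change of -3.1 ± 0.27 (1.5e-05). Heart markers summed to 236658 and 114968 on the lung arrays, against 3838912 and 1961639 in heart, and their part was not tested.

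In ovary, Gstm2, a mu-class enzyme, read 19609 and 36812, against 371 to 15698 (median 3469), with lung by one-cycle just below. It changed by 3.14 ± 0.29 (SE; adjusted p = 2.4e-05, limma). Aldh1a2 read 2870 and 5278, against 21.1 to 1461 (median 525), and changed by 2.88 ± 0.39 (0.00041). Both genes had no overlap with another tissue. Aldh1a1 was higher in ovary too, at 2.59 ± 0.24 (2.5e-05), as was Adh1, at 2.27 ± 0.34 (0.00077). Aldh1a1 and Adh1 were also higher on the arrays labelled brain, at 2.7 and 4.84, so these calls are not particular to ovary. Ugt3a2 read 9.1 and 41, against 8.7 to 118026 (median 142), a change of -2.73 ± 0.36 (4e-04). Adipocyte markers summed to 65664 and 105743 in ovary, against 155 to 72381 on the other tissue arrays, and their part in these changes was not tested.

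Embryo had 9 members higher and 13 lower, against 10.3% and 5.71% of all probe sets tested. The counts were 2 and 7 without the BIIB embryo array, 4 and 7 without the one-cycle one, 10 and 5 without the arrays labelled brain, and 10 and 7 without those labelled brain and liver. Ugt2b34 read 2506 and 3784 in embryo, against 4.9 to 28561 (median 155), and was higher by 2.61 ± 0.33 (SE; adjusted p = 0.00019, limma). Liver markers summed to 1288374 and 1047955 in embryo, second to the arrays labelled brain, and their part was not tested. Aldh1a1 read 2398 and 2172 in embryo, against 3692 to 96037 (median 13188), below every other array, and was lower at -3.14 ± 0.24 (2.9e-06). Ugt3a1 read 158 and 37.3, against 24.5 to 23382 (median 331), a change of -2.14 ± 0.36 (0.0013). Aldh1b1, a mitochondrial enzyme, was among the higher calls at 1.88 ± 0.34 (0.0022).

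By the mean of both protocols, no member had its highest signal in heart or spleen. By one-cycle alone some members were highest in heart, such as Gstm7 at 3470. Heart had 4 members higher and 25 lower, against 10.4% and 12.2% of all probe sets tested. The counts there were 1 and 16 without the BIIB heart array, 2 higher without the one-cycle one, and 16 lower without the arrays labelled brain. Spleen had 0 higher and 42 lower, against 14.8% and 19.5%, with a median of -1.37 against -0.06 for all, and 35 lower without the arrays labelled brain and liver. A single member was called higher in spleen without the BIIB heart array or without the arrays labelled brain. By family, 15 of 21 Gst, 9 of 11 Ugt, 6 of 9 Sult, 3 of 3 Adh and 9 of 22 Aldh probe sets were lower in spleen. All these counts, and those of heart, carry the limit given for lung and ovary. Adh4, Sult2a2 and Sult3a1, bright on the arrays labelled brain alone, were called lower in spleen at -1.3, -1.45 and -1.26.

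In heart, Aldh1l1 read 139 and 919, against 404 to 45614 (median 3587), and Aldh1a7 read 319 and 339, against 221 to 17601 (median 4408). Ugt3a2 read 8.7 and 95.5, against 9.1 to 118026 (median 134). All 3 overlapped with other dim tissues, and their changes were -3.28 ± 0.44 (SE; adjusted p = 0.00021, limma), -3.2 ± 0.34 (4.4e-05) and -2.49 ± 0.36 (0.00042). The 4 higher calls in heart were Gstk1, the mitochondrial and peroxisomal kappa enzyme, at 1.47, Gstm7 at 1.35, Gsto1 at 1.16 and Sult1a1 at 1.02, named after their values were seen. In spleen, Adh1 read 16.1 and 244, against 132 to 222528 (median 38834), a change of -6.36 ± 0.34 (3.9e-07). Gsta4, which conjugates the lipid aldehyde hydroxynonenal, read 1495 and 1214 in spleen, against 2439 to 33546 (median 12794), below every other array, and changed by -3.05 ± 0.28 (1e-05). Aldh1l1 read 404 and 645 in spleen, against 139 to 45614 (median 3587), and changed by -2.96 ± 0.44 (0.00027).

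Since each tissue value averages the protocols, BIIB was set against one-cycle over the 8 tissues with tissue as a block. BIIB gave 6 members higher and 13 lower, against 12.3% and 24.4% of all probe sets tested, with medians of -0.2 for the members and -0.27 for all. The amount of RNA, 500 pg against 1 ug, and the labelled product differ between the protocols, and the 2 cannot be told apart. The 3 Aldh2 probe sets were among those higher. The brightest read 10486 to 195418 (median 36019) by BIIB, against 3901 to 70318 (median 13397) by one-cycle, and was higher by BIIB in 8 of 8 tissues, by 2.35 to 4.82 times. A second probe set, of the x type, read 8824 to 132488 (median 30767) by BIIB, against 134 to 584 (median 351) by one-cycle, and so every BIIB array lay above every one-cycle array. On the arrays labelled brain this was 132488 by BIIB, against 584 by one-cycle. The log2 changes were 1.59 ± 0.15 (SE; adjusted p = 4.6e-06, limma) for the brightest, 6.26 ± 0.27 (1.7e-08) for the x type and 4.93 ± 0.31 (2e-07) for the third.

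Adh5 read 28721 to 200757 (median 72752) by BIIB, against 7039 to 38467 (median 11344) by one-cycle, with a BIIB to one-cycle ratio of 4.04 to 7.65 in every tissue. Its change was 2.46 ± 0.16 (SE; adjusted p = 2e-07, limma). Aldh3a2, the fatty aldehyde dehydrogenase, read 3881 to 39359 (median 10160) by BIIB, against 1230 to 15550 (median 2459) by one-cycle, and changed by 1.74 ± 0.2 (1.9e-05). The ranges over tissues overlapped for both genes, but all 8 tissues were higher by BIIB. Gsta4 was the remaining higher call, at 1.04 (adjusted p = 0.00048, limma). Aldh18a1 read 12.2 to 814 (median 122) by BIIB, against 273 to 4921 (median 997) by one-cycle on its brightest probe set, and was lower by BIIB at -2.31 ± 0.38 (0.00023). Aldh4a1, of proline breakdown, read 34.2 to 2867 (median 468) by BIIB, against 642 to 16752 (median 2539) by one-cycle, a change of -2.03 ± 0.29 (8.1e-05). Sult1d1 read 2.5 to 2966 (median 91.2) by BIIB, against 98.3 to 31006 (median 447) by one-cycle, a change of -1.58 ± 0.28 (0.00047), while its second probe set was not called. In these 3 all 8 tissues were lower by BIIB.

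**Figure D3:**
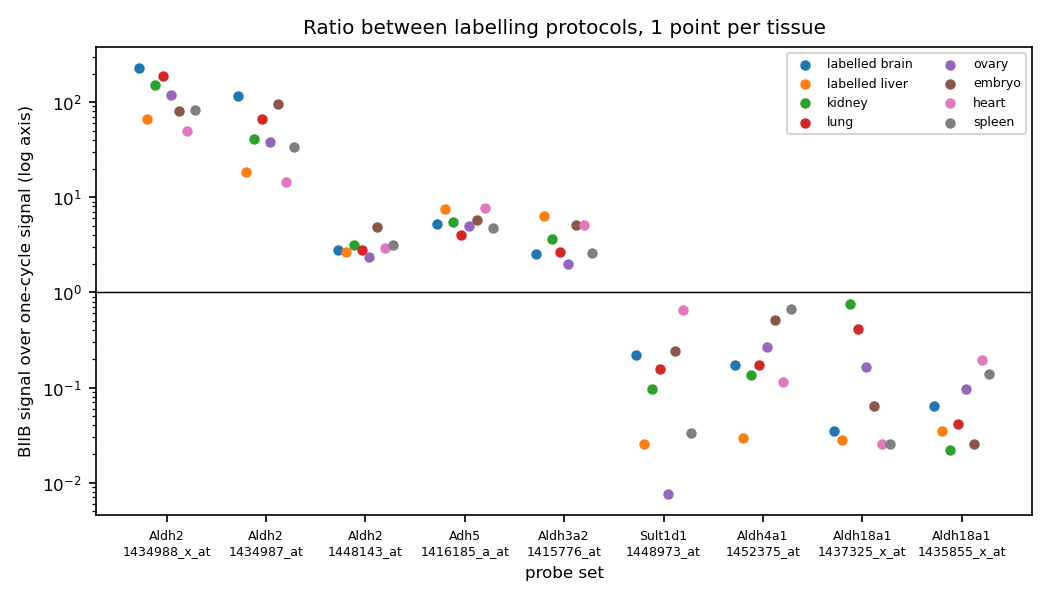
Signal by BIIB over signal by one-cycle (log axis) for probe sets of 6 genes, with 1 point per tissue and a line at a ratio of 1. All 8 tissues lie above 1 for the 3 Aldh2 probe sets, Adh5 and Aldh3a2, and below 1 for Sult1d1, Aldh4a1 and 2 probe sets of Aldh18a1.

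The cultured RAW267 cells were set against the sorted lymphocytes on the arrays of 100 and 500 cells, 3 against 18, with cell number as a covariate. The lymphocytes came from 1 mouse and the RAW267 cells from 1 line, so these p-values measure the spread between arrays, which may be technical. The 8 macrophage markers summed to 356834 to 759387 on the 11 RAW267 arrays, against 2267 to 11673 on the lymphocyte arrays. Of 51 members tested 5 were higher and 6 lower in RAW267 cells, against 4.45% and 7.61% of 17825 probe sets, with medians of -0.99 for the members and -0.45 for all. The filter takes the mean over 21 arrays, 18 of them of lymphocytes. A member near the floor in RAW267 cells, such as Gstp3, can pass through the lymphocytes alone and is then placed to come out lower. The lower calls and the medians carry this limit.

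All 3 Aldh2 probe sets were among the higher calls. The brightest read 31347 and 33300 on the 500-cell and 30288 on the 100-cell RAW267 arrays, against 257 to 23892 (median 10009) on the lymphocyte arrays, with no overlap. The log2 change was 2.59 ± 0.63 (SE; adjusted p = 0.01, limma), with adjusted p between 3.7e-08 and 0.12 over its 26 alternatives. That change averages over the mixtures. Arrays of unmixed B cells read 11328 to 23892 on this probe set and those of unmixed T cells 257 to 1273, so RAW267 cells lay closer to B cells. Aldh9a1, which oxidises aminobutyraldehyde and betaine aldehyde, read 10190 and 11784 on the 500-cell and 14465 on the 100-cell RAW267 arrays, against 45.3 to 8363 (median 1800), at 2.8 ± 0.91 (0.049). Its second probe set was not called, at 1.71 (adjusted p = 0.082). The call on the first was lost in 15 of 26 alternatives, whose adjusted p ran from 6.5e-05 to 0.3.

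Gstp1, the pi-class enzyme common in immune and epithelial cells, was the clearest of the lower calls. It read 2150 and 2087 on the 500-cell and 1992 on the 100-cell RAW267 arrays, against 8326 to 27266 (median 19207) on the lymphocyte arrays, with no overlap. The change was -3.06 ± 0.49 (SE; adjusted p = 0.00024, limma), past the threshold in all 26 alternatives. The other RAW267 arrays read 938 to 2437, apart from a 50-cell array at 21189, where the brain marker sum was 33132 and the liver marker sum 26639, against 1517 to 7265 and 2175 to 33835 on the other RAW267 arrays. Gstp3 read 19.7, 19 and 30.5, against 79.8 to 6878 (median 1314), at -3.1 ± 0.81 (0.017), and Gstt2 read 153, 14 and 804, against 63.1 to 6954 (median 1955), at -2.71 ± 0.78 (0.028). Gstt2 overlapped between the groups, and its 3 RAW267 arrays differed widely. The remaining calls were Aldh16a1, higher at 1.81, and Adh1, Aldh1a3 and Aldh7a1, lower at -2.41, -2.04 and -2.06, and the last 2 genes had other probe sets that were not called.

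These counts rest on few RAW267 arrays. They were 1 higher and 1 lower without the first 500-cell RAW267 array, 0 and 1 without the second, and 0 and 2 without the 100-cell array. Leaving out 1 of 6 lymphocyte arrays (either array of 100 T cells, the first of 60 T and 40 B cells, that of 400 T and 100 B cells, that of 100 T and 400 B cells, or that of 500 B cells) gave 3 higher, and without the first array of 40 T and 60 B cells 10 were lower. The 100-cell RAW267 array had a liver marker sum of 33835, against 4041 and 3643 on the 500-cell RAW267 arrays. The part of that signal in these calls was not tested. The array of 500 T cells stood apart, with a heart marker sum of 134366 against 2039 to 6602 on the other lymphocyte arrays. Without it 4 members were higher and 5 lower.

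**Figure D4:**
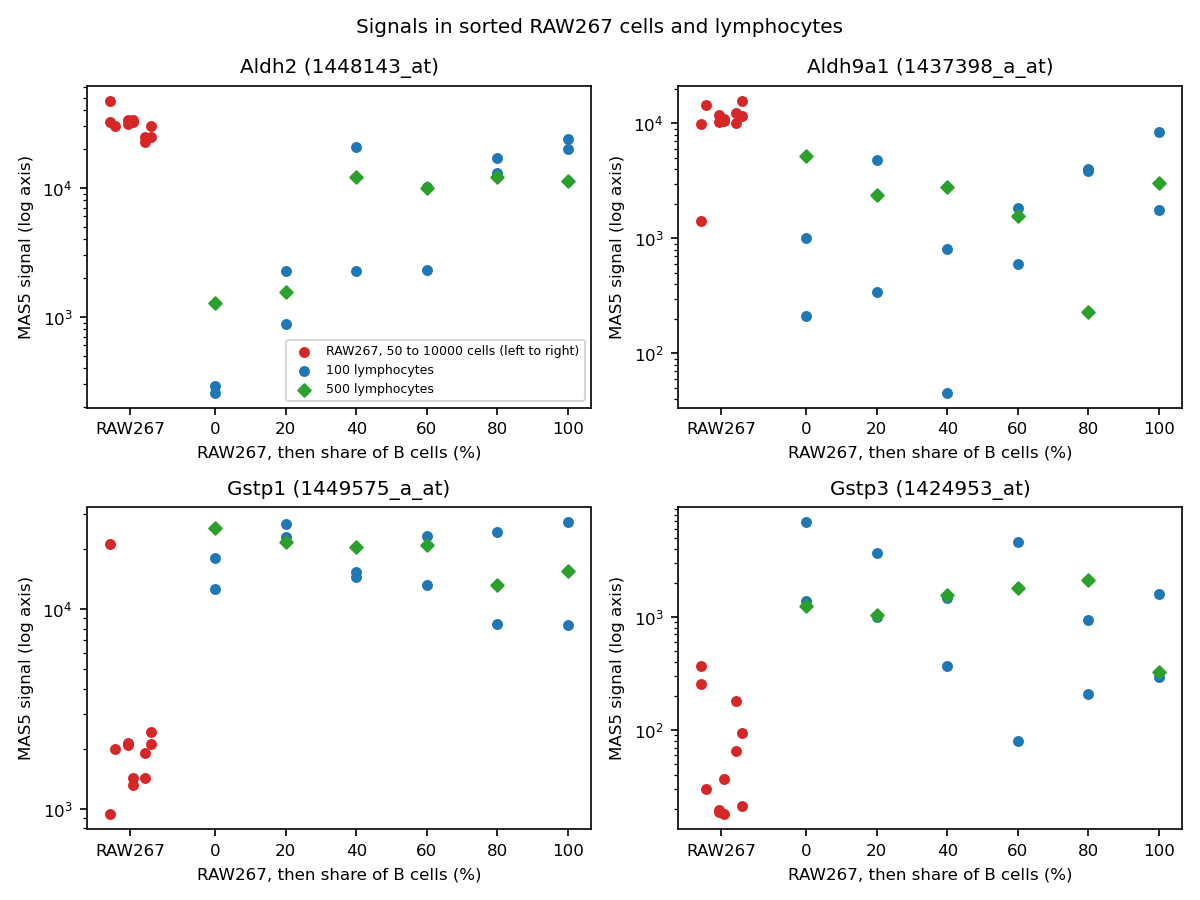
Signals (log axis) of Aldh2, Aldh9a1, Gstp1 and Gstp3, 1 point per array, on the RAW267 arrays (50 to 10000 cells, left to right) and on the lymphocyte arrays by share of B cells, with circles for 100 and diamonds for 500 lymphocytes. Aldh2 lies at 11328 to 23892 on the arrays of unmixed B cells, against 257 to 1273 on those of unmixed T cells, and Gstp1 lies at 938 to 2437 on the RAW267 arrays apart from a 50-cell array at 21189, against 8326 to 27266 on the lymphocyte arrays.

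Between unmixed B and unmixed T cells no member of 51 tested was called by limma, with 8 at an unadjusted p under 0.05. Those 8 include the 3 Aldh2 probe sets. The share of all probe sets under that p is not given, so no excess can be read from the 8. Across all 18327 probe sets tested 0.164% were called higher and 0.0764% lower, and the 2 arrays per group give this comparison little power. Aldh2 had the largest contrast of its kind in levels. Its brightest probe set read 23892 and 19989 on the arrays of 100 B cells, against 292 and 257 on those of 100 T cells. A further array of 500 B cells read 11328, against 1273 for 500 T cells, so at both cell numbers the B cell arrays were higher. The log2 difference was 5.78 ± 1.19 (SE; adjusted p = 0.06, limma), which is not past the threshold. Across 17 alternatives it was 4.76 to 6.19, with adjusted p between 0.00099 and 0.45, and was called in 3. A slope on the share of B cells over all 18 arrays, 1 of those 17 alternatives, used the mixtures as well. All 18 arrays carry cells of 1 mouse, so the p-values of both tests measure the spread between arrays. That slope called the 3 Aldh2 probe sets higher and 0 members lower out of 52 tested, where 0.686% and 0.496% of 18354 probe sets were called. The changes from T to B cells were 4.76, 4.92 and 4.39 (adjusted p = 0.00099, 0.0014 and 0.0018). Without either array of 60 T and 40 B cells the comparison of unmixed cells called 1 member higher. This was the brightest Aldh2 probe set, and these calls are already counted among its 3.

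Along the RAW267 dilution from 50 to 10000 cells, 0 of 19 members tested were higher and 1 lower with more cells, against 2.26% and 0.679% of 11480 probe sets. This was Aldh16a1, a member of the family thought to lack aldehyde dehydrogenase activity in mammals. It read 2285 and 1157 at 50 cells, 1776 at 100, 1382 and 1083 at 500, 1126 and 760 at 1000, 807 and 691 at 5000, and 493 and 658 at 10000. The fitted change over the range was -1.37 ± 0.31 (SE; adjusted p = 0.042, limma), with adjusted p between 0.029 and 0.1 over 15 alternatives and the call lost in 8. The call was lost when any single array of 1000, 5000 or 10000 cells or the first of 50 cells was left out, and without the 100-cell array 1 member was higher and 2 were lower. Markers of other tissues also fell with cell number, with Ttr of the liver list at -5.22 ± 1.23 (SE; adjusted p = 0.044, limma) and Snap25 of the brain list at -4.39 ± 0.98 (0.04). Of the 4 liver, 2 brain and 6 heart markers tested, these were the 2 called, and the list medians were -2.09, -1.86 and -2.93, against 0.29 for all probe sets. The liver marker sum was 26639 on the first 50-cell array and 33835 on the 100-cell array, against 2175 to 4632 on the other 9. The heart marker sum was 56209 on the second 50-cell array, against 1426 to 15305 on the other 10. The part of this signal in the fall of Aldh16a1 was not tested.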

How the data were processed

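Expression was measured on 103 mouse arrays, of which 16 tissue, 18 lymphocyte and 11 RAW267 arrays were used, and the 58 arrays of universal RNA were not used here. The authors deposited linear MAS5 signal intensities, as named in the submitters' processing notes. Which MAS5 version and settings they used is not given in the sources used here. With 2% of probe sets trimmed at each end, array means lay between 2500.23 and 2502.45 as deposited, and every array was rescaled to 2501. Precision is limited by the number of arrays, and no detection calls were used.

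Two-sided tests were run with limma 3.58.1 (lmFit, eBayes) under R 4.3.3 on the log2 of the signal plus 5% of 2501, for non-control probe sets with a mean signal of at least 500 over the arrays of a fit, with Benjamini-Hochberg adjustment over all of them. The scripts were tested on simulated data with known changes. Tissue fits had protocol as a covariate, and lymphocyte mixtures shared 1 spread. Gene names came from the annotation of the array platform. The 691 with several symbols, 4 of them with a family name, were left out. Of the 84 member probe sets, all matched a RefSeq gene by Entrez number.

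Named members were, among those called, the largest changes: up to 4 per family on the arrays labelled brain, 2 per family in kidney, 3 in each other tissue, 5 in the cell comparisons and 3 each way between protocols, with the brightest probe set of a gene. Others were named after their values were seen. The members and lists were chosen with earlier results of these data known. Promoters were the first RefSeq entry of each gene on GRCm38.p6. Arrays were compared pairwise and 0 pairs were identical. Alternatives were a pseudocount of 25, no filter, quantile normalization, 1 probe set per gene and leaving out each array.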

Additional observations from a re-analysis of the deposited data

How the results depend on the processing

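Of 64 named member results, 1315 of 1347 alternatives kept the direction and the call, 32 kept the direction without the call and 0 reversed. These results were named as the largest called changes of the main fits, so a high share is partly built into the choice. Calls were lost only in the cell comparisons, as for Aldh9a1 (15 of 26) and Aldh16a1 (8 of 15). Leaving out 1 array at a time, members called higher and lower ranged over 43 to 52 and 3 to 5 on the arrays labelled brain, 2 to 3 and 24 to 38 on those labelled liver, 25 to 29 and 3 to 11 in kidney, 4 to 11 and 9 to 17 in lung, 4 to 10 and 5 to 18 in ovary, 2 to 9 and 7 to 15 in embryo, 1 to 4 and 16 to 24 in heart, and 0 to 1 and 32 to 43 in spleen. They ranged over 18 to 26 and 6 to 11 for the arrays labelled brain against kidney, 5 to 6 and 12 to 15 for BIIB against one-cycle, 0 to 1 and 0 to 0 for B against T cells, 0 to 5 and 1 to 10 for RAW267 against lymphocytes, and 0 to 1 and 0 to 2 for the RAW267 slope. A pseudocount of 25 gave 9 lower in ovary, 1 higher in spleen and 11 lower in RAW267 cells. Quantile normalization gave 2 lower on the arrays labelled brain, 8 lower by BIIB and 1 lower in RAW267 cells. It moved the median of all probe sets tested from -0.42 to -0.18 on the arrays labelled brain, where 43.3% of all calls were then higher in place of 30.9%, from -0.27 to -0.04 for BIIB (46.8% in place of 33.5%), and from -0.45 to -0.03 for RAW267 cells (57.1% in place of 36.9%). It also moved that median from 0.29 to 0.14 for the RAW267 slope (66.1% in place of 76.9%), from -0.25 to -0.08 for the arrays labelled brain against kidney and from 0.17 to 0.06 in ovary. Without the filter 3 members were higher in RAW267 cells and 0 lower along the RAW267 slope, and with 1 probe set per gene 3 were higher in RAW267 cells. All 11 RAW267 arrays against the lymphocytes gave 11 higher and 22 lower. Without the arrays labelled brain there were 6 lower in ovary, 5 lower in embryo, 16 lower in heart and 1 higher in spleen. Leaving out the arrays labelled brain and liver, chosen after seeing the data as was leaving out the array of 500 T cells, gave 7 lower in embryo. The slope on the share of B cells gave 3 higher. With the replicate block the RAW267 slope gave 1 higher and 2 lower, and B against T cells 0 and 0. Deviations of same-numbered arrays correlated at 0.013 to 0.086 over 15 lymphocyte pairs and -0.05 to 0.24 over 10 RAW267 pairs. The labels do not say whether a replicate number marks a shared sort or day. Low correlations cannot settle that, so whether the numbers pair the arrays is not known. The tissues carry no number to pair. The cause of these shifts was not tested.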

Other observations

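Regulators and transporters that work alongside these enzymes were counted by lists of their own. Of 16 regulators tested, 10 were higher and 0 lower on the arrays labelled brain, and 4 were higher and 4 lower in kidney, with medians of 1.61 and -0.4 on the log2 scale. Among all probe sets tested 10.7% were higher and 24% lower on the arrays labelled brain, with a median of -0.42, and 10.6% and 12.4% in kidney, with a median of -0.13. Hnf4a, a nuclear receptor of liver and kidney, was higher in both, at 5.58 ± 0.27 and 5.79 ± 0.27 (SE; adjusted p = 2.5e-08 and 4.1e-08, limma), as was the bile acid receptor Nr1h4, at 4.19 and 5.17. Nr1i3, the xenobiotic receptor CAR, was higher on the arrays labelled brain at 5.21 ± 0.41 (1.4e-06) and was not called in kidney, where its change was -0.97 (adjusted p = 0.099). The Foxa genes were called in opposite directions, with Foxa3 at 3.47 on the arrays labelled brain and -1.09 in kidney. Nfe2l2, the gene of NRF2, was at 0.01 and 0.07 and was called in neither. Of 9 transporters of conjugates and bile acids, 6 were higher and 1 lower on the arrays labelled brain, and 3 were higher and 2 lower in kidney, with medians of 4.75 and -0.36. Slc10a1, which takes up bile acids, was at 7.94 on the arrays labelled brain and -1.52 in kidney, while Slco1a1, an organic anion carrier, was higher in both, at 4.98 and 6.03. Both comparisons are against the other 7 tissues and so share arrays.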
